A study of Mus musculus with 6 samples.

Results

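The cholesterol genes described here are 32 genes of cholesterol synthesis, uptake, transport inside the cell, esterification and efflux, chosen by name. They were compared in livers of 3 ChLO and 3 WT mice, with 1 Affymetrix 3′ expression array per mouse. A gene was measured where a probe set carried its symbol and no other, and the probe set with the highest mean over the 6 arrays stood for the gene. This gave 29 of the 32 genes, all of which passed a filter on dim probe sets, out of 12598 genes that passed it on the whole array. The expression of Acat2, Soat1 and Soat2 is not analysed here.

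ChLO mice are liver-specific Chrebp knockouts, bred from Chrebpflox mice and albumin-Cre transgenic mice. The albumin promoter drives Cre mainly in hepatocytes, and the sources do not say in which other liver cells the gene was deleted. The mice of the WT group are labelled wild type, and the sources do not say whether they carried floxed alleles or Cre. All 6 mice were male, 12 weeks old, and ate a diet with 60% sucrose for 1 week. No group on another diet was part of the comparison. ChREBP, encoded by Mlxipl, is a transcription factor that responds to sugar. Its probe set read 10.34, 11.22 and 11.48 log2 units in ChLO livers, against 12.61, 12.56 and 12.59 in WT livers. The difference was -1.57 (SE 0.28), with a limma adjusted p of 0.185. The sources do not say where that probe set lies relative to the floxed part of the gene.

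Cholesterol is built from acetyl-CoA through mevalonate, isoprenoid units, squalene and a series of sterols. In liver the SREBP-2 transcription factor turns these enzymes on when sterols in the endoplasmic reticulum run low, and LXR nuclear receptors turn on efflux pumps when oxysterols are plentiful. Many enzymes of the route also respond to SREBP-1, which with ChREBP drives fatty acid synthesis after a carbohydrate meal.

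Most cholesterol genes showed no difference between ChLO and WT livers larger than the spread between mice. Stard4, a sterol carrier, and Aacs, acetoacetyl-CoA synthetase, read lower in ChLO on every array, while Msmo1, a sterol methyl oxidase, read higher on every array. Lcat and Sc5d had smaller differences in the lower direction without overlap. By limma, 0 of the 29 genes passed at a Benjamini-Hochberg adjusted p under 0.05, as did 0.0% of all 12598 genes, where the smallest adjusted p was 0.0528. At an unadjusted p under 0.05, 3 of the 29 genes were lower and 1 was higher, against 3.5% and 5.46% of all genes. The groups did not overlap for 4 genes that were lower and for 1 that was higher, or 13.8% and 3.45% of the 29. Over all genes those shares were 6.19% and 9.04%. The median difference of the 29 genes was -0.06 log2 units, and that of all genes tested was 0.06. For 14 of the 29 genes the 95% interval of the difference lay between -1 and 1, and for the other 15 it reached past a 2-fold difference in at least one direction.

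**Figure D1:**
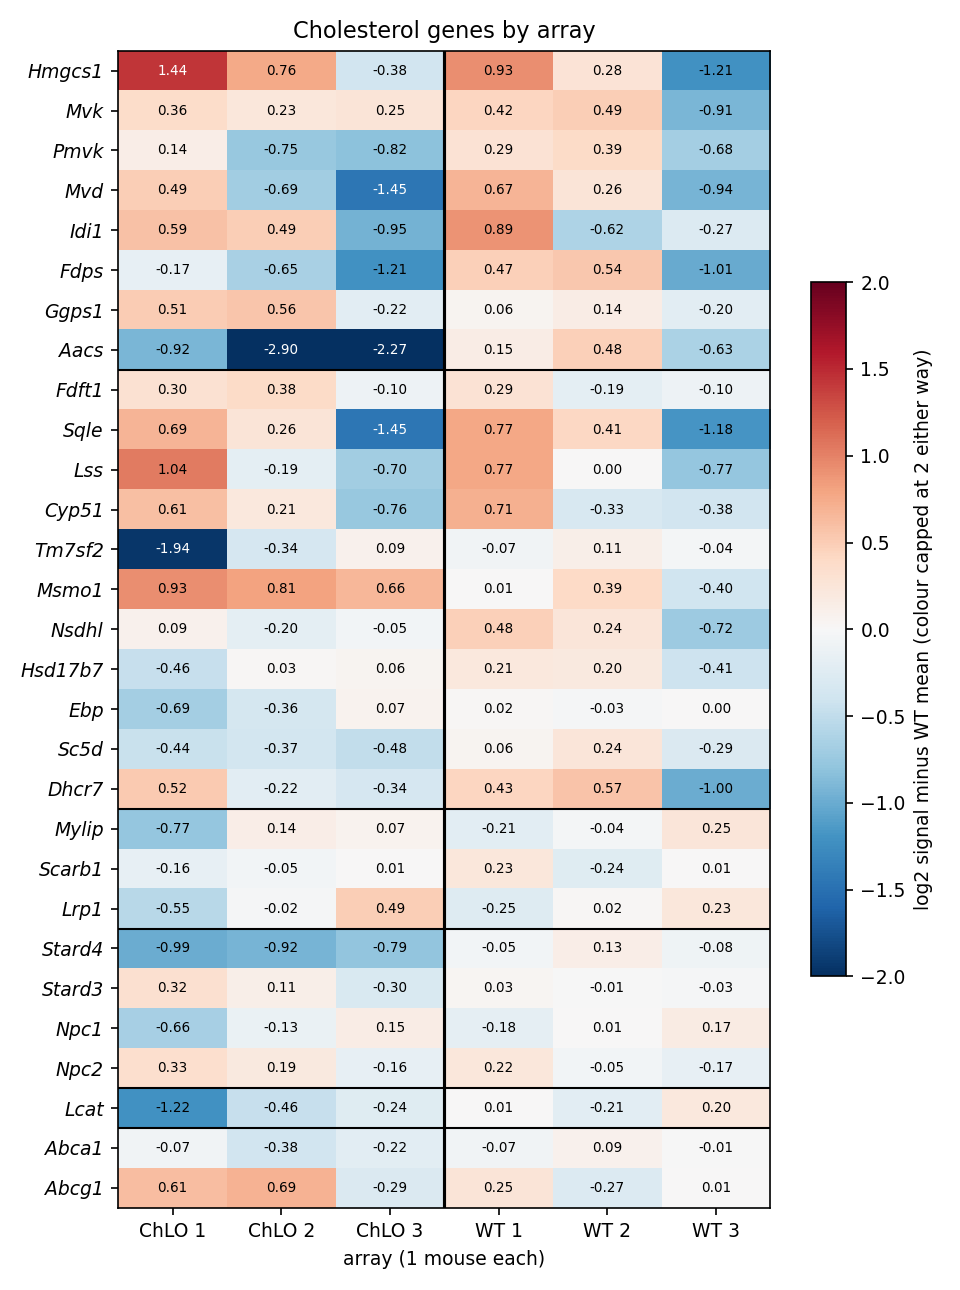
Heat map of the 29 measured cholesterol genes (rows, grouped by role) on the 6 arrays (columns, ChLO then WT), as log2 signal minus the WT mean of the same gene. Stard4 and Aacs are below the WT mean on all 3 ChLO arrays, whereas Hmgcs1, Sqle and Lss differ as much between mice of 1 genotype.

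All 7 measured hepatocyte markers were above the filter level, and 7 of 7 had lower means in ChLO, against 43.5% of all genes. Their summed linear signal lay between 228123 and 272005 in ChLO livers, against 285229 to 326979 in WT livers. For 4 of the 7 the groups did not overlap, against 6.19% of all genes in the lower direction, and none was listed at 0. Summed signals of 8 stellate cell and fibroblast markers were 16857, 18320 and 3797 in ChLO 1, 2 and 3, against 6160, 3389 and 3234 in WT 1, 2 and 3. Those of 5 cholangiocyte markers were 1529, 734 and 353 in ChLO, against 347, 373 and 216 in WT. Of the 5, Cldn4 differed most, by 2.74, and Krt7 differed by -0.12. Epcam in ChLO 1, at 6.01, lay within the WT range. Summed signals of 9 Kupffer cell and macrophage markers were 21838, 20702 and 11531 in ChLO, against 13841, 12151 and 12635 in WT. ChLO 1 and ChLO 2 thus stand apart from ChLO 3 in these summed signals. A sign of RNA integrity, the log2 difference between the 3′ and 5′ probe sets of Actb, ranged from 0.84 to 1.46 in ChLO livers, against 1.13 to 1.38 in WT livers. In bulk tissue, fewer cells of a type and less RNA per cell cannot be told apart. The part that these shifts play in the results was not tested.

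Promoter sequences are shown for the genes with an unadjusted p under 0.05 and no overlap between groups, which were Stard4, Aacs, Msmo1 and Lcat, so that the differences can be set beside the DNA upstream of each gene. RefSeq's table on GRCm38.p6 held those of Aacs, Msmo1 and Lcat. Hmgcs1, which encodes HMG-CoA synthase, was added after its values were seen, as an enzyme whose signal differed widely between mice of 1 genotype. Each run holds the 250 bases before the annotated start, 5′ to 3′ on the gene's strand. Capitals mark CCAAT, the box bound by NF-Y, which acts with SREBPs, and TCACCCCAC, a core of sterol regulatory elements, on either strand.
Aacs, chr5:125475623-125475872, plus strand: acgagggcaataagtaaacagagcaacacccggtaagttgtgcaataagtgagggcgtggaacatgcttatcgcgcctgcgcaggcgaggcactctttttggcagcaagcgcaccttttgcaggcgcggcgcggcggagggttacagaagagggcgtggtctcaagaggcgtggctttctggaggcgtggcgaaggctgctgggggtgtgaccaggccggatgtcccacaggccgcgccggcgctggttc
Msmo1, chr8:64733579-64733828, minus strand: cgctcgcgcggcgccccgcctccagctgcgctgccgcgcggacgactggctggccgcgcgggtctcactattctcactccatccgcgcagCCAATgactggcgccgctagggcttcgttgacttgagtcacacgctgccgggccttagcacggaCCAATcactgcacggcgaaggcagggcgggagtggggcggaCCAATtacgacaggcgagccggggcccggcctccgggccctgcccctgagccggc
Lcat, chr8:105943403-105943652, minus strand: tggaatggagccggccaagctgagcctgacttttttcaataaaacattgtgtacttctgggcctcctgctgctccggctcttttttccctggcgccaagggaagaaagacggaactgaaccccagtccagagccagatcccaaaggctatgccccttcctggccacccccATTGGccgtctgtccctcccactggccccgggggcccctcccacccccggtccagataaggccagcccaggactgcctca
Hmgcs1, chr13:119690101-119690350, plus strand: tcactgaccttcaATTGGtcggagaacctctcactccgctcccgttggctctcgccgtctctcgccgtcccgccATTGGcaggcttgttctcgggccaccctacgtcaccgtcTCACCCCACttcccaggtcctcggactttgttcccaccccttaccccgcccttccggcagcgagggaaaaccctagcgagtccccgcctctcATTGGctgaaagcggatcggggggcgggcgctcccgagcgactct

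Msmo1 and Hmgcs1 each had 3 CCAAT boxes in this window, Lcat had 1, and Aacs had none. Hmgcs1 alone of the 4 held TCACCCCAC, starting 137 bases before the gene start. The motif counts cover the 24 of the 32 listed genes with a promoter in the table, including Acat2 and Soat1, whose expression was not measured. Of these, 20 held CCAAT on either strand (83.3%), against 37.5% of all 27025 genes. TCACCCCAC was in 1 of 24, against 0.555% of all genes. The looser form TCACNCCAC, which includes it, was in Hmgcs1 and Stard3, against 1.22% of all genes. CACGTG, the E-box that ChREBP binds as a spaced pair, was in Hsd17b7, Sc5d, Dhcr7 and Abca1 (16.7%), against 6.86% of all genes. A gene with several annotated starts counted if any of its windows matched. Of the 4 genes with CACGTG, Sc5d was lower in ChLO without overlap, as were 6.19% of all genes. With quantile normalization the Sc5d groups overlapped. Whether the motif bears on the differences was not tested. The motif matches are letters in a short window and describe no binding.

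Genes of the first part of the route, counted here with Aacs, which feeds it, and Ggps1, which branches off, had no shared direction. Of these 8 genes, 4 were lower, against 43.5% of all genes. Aacs makes acetoacetyl-CoA from ketone bodies in the cytosol and so feeds sterol and fatty acid synthesis. It read 10.73, 8.74 and 9.37 in ChLO livers, against 11.79, 12.12 and 11.01 in WT livers. Every ChLO liver was below every WT liver, and ChLO 1 lay closest to WT. The difference was -2.03 (SE 0.50), or 4.08-fold lower, with a 95% interval of -3.19 to -0.87 and an adjusted p of 0.373 by limma. Its other 2 probe sets also separated the groups, with differences of -1.62 and -1.76. The one at -1.76 is dim, at 3.65, 6.01 and 4.91 in ChLO against 6.58, 6.90 and 6.36 in WT. There ChLO 1 was the lowest liver, and ChLO 1 and ChLO 3 lay under the filter level of 5.50, so it is not read here as support. When 1 array was left out, the difference lay between -2.59 and -1.59. Aacs thus had the largest difference of the 29 genes, and the spread among ChLO livers was nearly as wide, at 1.99 log2 units.

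Hmgcs1, which makes HMG-CoA, read 14.18, 13.50 and 12.36 in ChLO, against 13.67, 13.02 and 11.53 in WT. The groups overlapped, and within each group the arrays spanned 1.82 log2 units in ChLO and 2.14 in WT. The difference was 0.60 (SE 0.61), with an interval of -0.80 to 2.004. When 1 array was left out it lay between -0.0018 and 1.10. All 5 probe sets of the gene gave a higher ChLO mean, by 0.48 to 0.66. Fdps, which makes farnesyl diphosphate, read 13.20, 12.73 and 12.17 in ChLO livers, against 13.85, 13.91 and 12.37 in WT, a difference of -0.68 (SE 0.44). Fdps was lower by 1.18 without WT 3 (unadjusted p = 0.00795, adjusted p = 0.607 by limma). Its groups then no longer overlapped, as for 1261 of all 12598 genes that were lower. Mvd, which forms isopentenyl diphosphate, differed by -0.55 (SE 0.56) and Pmvk, phosphomevalonate kinase, by -0.48 (SE 0.36). Mvd differed by -0.10 without ChLO 3 and by -1.07 without ChLO 1, and its second probe set gave -2.08. That probe set read 9.20, 7.73 and 2.10 in ChLO, against 9.34, 9.15 and 6.77 in WT. Its groups overlapped, and ChLO 3 lay far below the rest. Pmvk differed by -0.79 without ChLO 1 and by -0.82 without WT 3 (limma unadjusted p = 0.0445 and 0.0423, adjusted p = 0.799 and 0.786). Mvk, mevalonate kinase, read 8.67, 8.53 and 8.56 in ChLO livers, against 8.73, 8.80 and 7.39 in WT livers. WT 3 lay far below the other 5 livers. The difference was 0.28 (SE 0.38), and -0.18 without WT 3, when every ChLO liver lay below the WT livers. A second, dimmer Mvk probe set gave 0.98, and its groups overlapped. Idi1, the isomerase of the isoprenoid units, differed by 0.04 (SE 0.50). Ggps1, which branches off towards geranylgeranyl diphosphate, differed by 0.28 (SE 0.27), and by 0.53 without ChLO 3 (limma unadjusted p = 0.0474, adjusted p = 0.240).

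From squalene synthase to cholesterol, 7 of 11 genes were lower in ChLO and 4 were higher, where 43.5% of all genes were lower. Msmo1, which removes methyl groups from sterols after lanosterol, read 13.02, 12.90 and 12.75 in ChLO livers, against 12.09, 12.48 and 11.69 in WT livers. The lowest ChLO liver lay above the highest WT liver, and ChLO livers spanned 0.27 log2 units where WT livers spanned 0.79. The difference was 0.80 (SE 0.22), or 1.74-fold higher, with an interval of 0.28 to 1.31 and an adjusted p of 0.441 by limma. It ranged from 0.60 to 1.00 when an array was left out. A second Msmo1 probe set lay below the filter on dim signals and is not read here as support.

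Sc5d, the sterol desaturase near the end of the route, read 13.99, 14.05 and 13.94 in ChLO, against 14.49, 14.67 and 14.13 in WT. The groups did not overlap, and WT 3 lay closest to the ChLO livers. The difference was -0.43 (SE 0.19), or 1.35-fold lower, with an interval of -0.87 to 0.0005 and an unadjusted p of 0.0502 (limma). The other 2 probe sets of Sc5d, which are dimmer, gave differences of -1.41 and -1.27, also without overlap. One of them read 10.67, 10.86 and 10.82 in ChLO, against 12.49, 12.63 and 11.46 in WT. The mean of the 3 probe sets differed by -1.04 (limma unadjusted p = 0.00403, adjusted p = 0.40), so the size of the Sc5d difference depended on the probe set. With quantile normalization the main probe set differed by -0.31 and the groups overlapped.

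Sqle, squalene epoxidase and a control point of the route, read 11.83, 11.41 and 9.69 in ChLO, against 11.91, 11.55 and 9.96 in WT. Both genotypes covered nearly the same span, with 1 low liver each. The difference was -0.17 (SE 0.65), and the interval of -1.66 to 1.33 leaves room for more than a 2-fold difference either way. Lss, lanosterol synthase, read 11.21, 9.98 and 9.48 in ChLO livers, against 10.94, 10.18 and 9.40 in WT livers, a difference of 0.05 (SE 0.51). Cyp51, lanosterol demethylase, differed by 0.02 (SE 0.41) and Dhcr7, which makes cholesterol in the last step, by -0.01 (SE 0.43). For Cyp51 the other 2 probe sets gave -0.17 and -0.76, the last without overlap, and for Lss they gave -0.63 and 0.04. Intervals were narrower for Fdft1, squalene synthase, at 0.20 (SE 0.20), for Hsd17b7, a sterol ketone reductase, at -0.12 (SE 0.24), and for Nsdhl, a sterol decarboxylase, at -0.05 (SE 0.30).

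Tm7sf2, a sterol reductase, and Ebp, a sterol isomerase, were low in 1 or 2 ChLO livers. Tm7sf2 read 9.93, 11.53 and 11.96 in ChLO, against 11.80, 11.98 and 11.83 in WT. ChLO 1 and ChLO 2 lay below every WT liver and ChLO 3 within the WT range. The difference was -0.73 (SE 0.46), -0.12 without ChLO 1, and -1.14 without ChLO 3 (limma unadjusted p = 0.0232, adjusted p = 0.176). Ebp read 12.66, 12.99 and 13.42 in ChLO livers, against 13.37, 13.32 and 13.35 in WT. The difference was -0.32 (SE 0.21), -0.14 without ChLO 1, and -0.52 without ChLO 3 (limma unadjusted p = 0.0164, adjusted p = 0.153). ChLO 1 and ChLO 2 are also the arrays with high summed signals of the stellate cell and macrophage markers. Of the macrophage markers, Adgre1, Csf1r, Marco and Clec4f were not above every WT liver in both arrays. The part of these markers in the Tm7sf2 and Ebp differences was not tested.

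**Figure D2:**
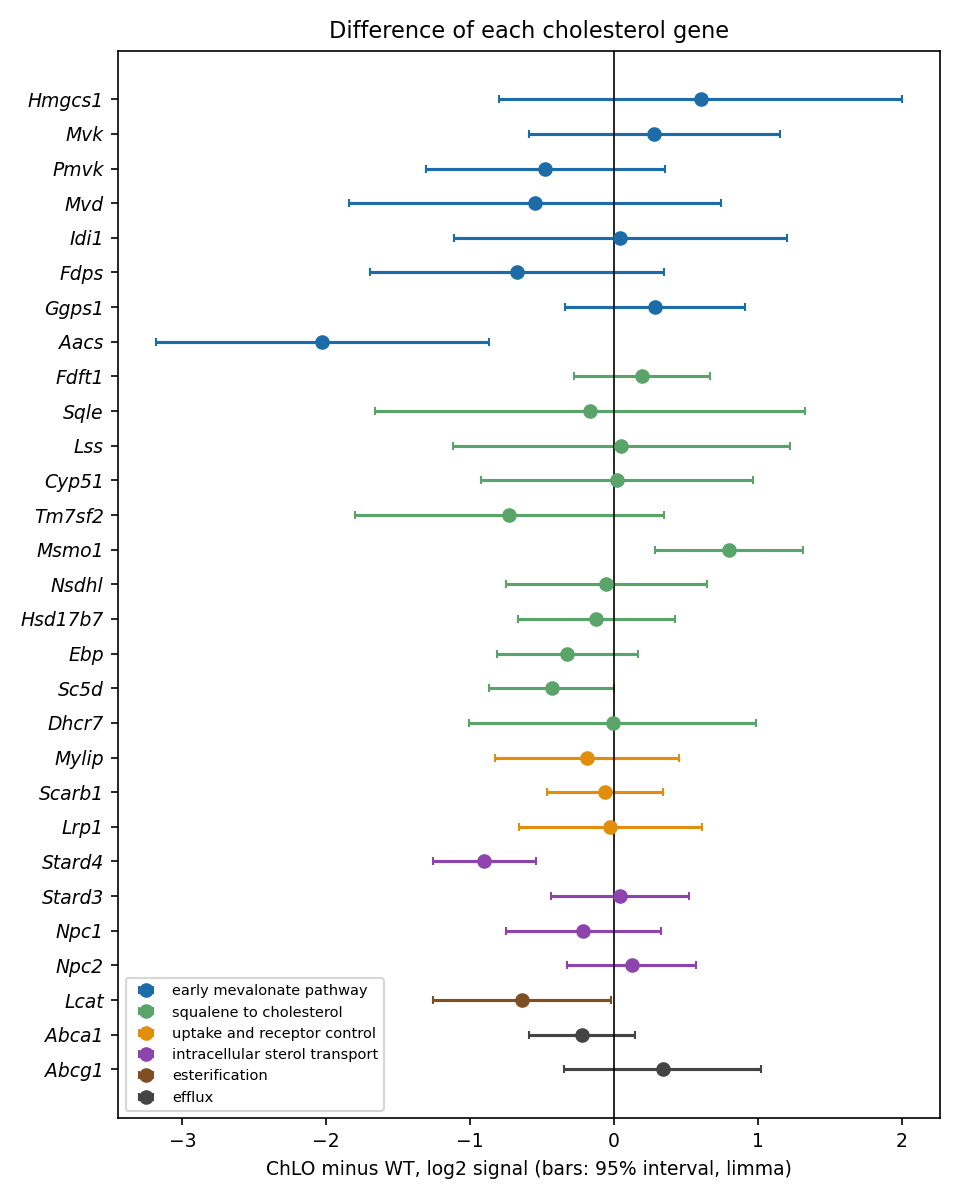
ChLO minus WT difference in log2 signal (x axis) for each of the 29 cholesterol genes (rows, coloured by role), as points with the 95% interval of the limma fit on 3 ChLO and 3 WT arrays. The intervals of Aacs, Stard4 and Lcat lie below 0 and that of Msmo1 above it. The widest are those of Sqle and Hmgcs1.

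Among genes that carry sterols inside the cell, Stard4 had the smallest p of the 29 genes. Its protein moves cholesterol between membranes, and in mouse liver its gene is a known SREBP target. Stard4 read 10.99, 11.06 and 11.19 in ChLO livers, against 11.93, 12.11 and 11.90 in WT livers. The 3 livers of each genotype lay within 0.20 and 0.21 log2 units of each other, so the gap between genotypes was several times the spread. The difference was -0.90 (SE 0.15), or 1.87-fold lower, with an interval of -1.26 to -0.55 and an adjusted p of 0.175 by limma. Without ChLO 3 it was -0.96 and passed (limma adjusted p = 0.0344). All 3 probe sets of Stard4 separated the groups, with differences of -0.90, -0.79 and -0.95. The groups were not as tight in the probe set at -0.79. It read 10.14, 9.99 and 9.06 in ChLO, against 10.72, 10.21 and 10.62 in WT, so ChLO 1 lay close to WT 2. Stard3, a late endosome sterol carrier, differed by 0.04 (SE 0.21). Npc1 and Npc2, which release cholesterol from lysosomes, differed by -0.21 (SE 0.23) and 0.12 (SE 0.19).

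Lcat, the plasma enzyme that esterifies cholesterol on high-density lipoprotein, read 11.78, 12.53 and 12.75 in ChLO, against 13.00, 12.78 and 13.20 in WT. ChLO 1 was far below the rest, and ChLO 3 lay only just under the lowest WT liver. The difference was -0.64 (SE 0.27), or 1.56-fold lower, with an interval of -1.26 to -0.02 and an adjusted p of 0.549 by limma. Without ChLO 3 it was -0.84 (limma unadjusted p = 0.0104, adjusted p = 0.126), and without ChLO 1 it was -0.35 (limma unadjusted p = 0.103, adjusted p = 0.877). The hepatocyte markers had a median difference of -0.36 in the same arrays, and whether Lcat differs beyond them was not tested.

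**Figure D3:**
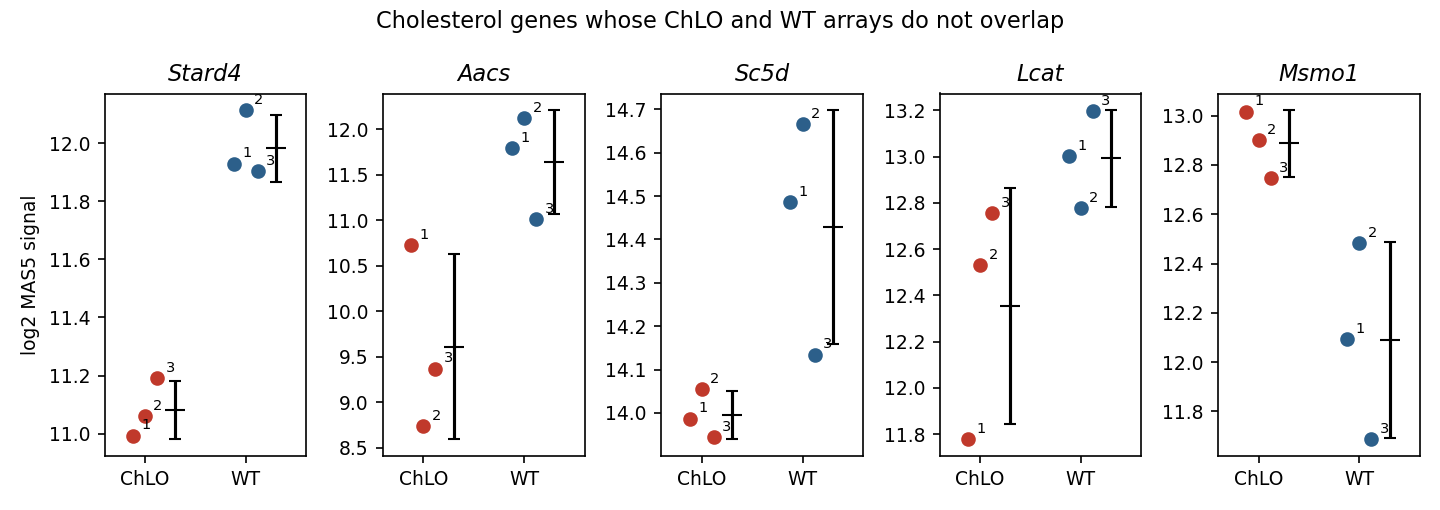
Log2 signal (y axis, a scale of its own per panel) of the 5 cholesterol genes whose ChLO and WT arrays did not overlap. Points are single mice with their replicate number, and bars show the mean and SD of 3 mice. Stard4 shows tight groups 0.90 log2 units apart, and Aacs a larger difference with a wide spread in ChLO.

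None of the 5 genes of uptake and efflux reached an unadjusted p under 0.05 by limma. Over all genes, 3.5% did so lower in ChLO and 5.46% higher. Mylip, an LXR-induced ubiquitin ligase that breaks down lipoprotein receptors, read 8.998, 9.91 and 9.84 in ChLO, against 9.56, 9.73 and 10.02 in WT. The groups overlapped, and the difference was -0.19 (SE 0.28). Scarb1, which encodes SR-BI and takes cholesterol from high-density lipoprotein, differed by -0.06 (SE 0.17), with an interval of -0.47 to 0.34. Its other 2 probe sets gave -0.21, without overlap, and -0.19. Lrp1, a receptor for remnant particles that hepatocytes and several other liver cells make, differed by -0.03 (SE 0.27).

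Abca1, the pump that forms high-density lipoprotein and an LXR target, read 13.29, 12.98 and 13.14 in ChLO, against 13.29, 13.45 and 13.35 in WT. The groups touched at ChLO 1 and WT 1. The difference was -0.22 (SE 0.16), with an interval of -0.59 to 0.15. Abcg1, a pump that macrophages and endothelial cells also make, read 9.72, 9.80 and 8.82 in ChLO, against 9.37, 8.84 and 9.12 in WT. ChLO 1 and ChLO 2 lay above all WT livers and ChLO 3 just below them. The difference was 0.34 (SE 0.30), and 0.65 without ChLO 3 (limma unadjusted p = 0.0188, adjusted p = 0.162). A second, dimmer Abcg1 probe set read 7.41, 7.28 and 6.87 in ChLO, against 6.81, 7.45 and 6.57 in WT, with WT 2 highest. By its main probe set, Abcg1 was high in the same 2 arrays as the macrophage marker Cd68. Cd68 read 10.73, 9.78 and 8.16 in ChLO against 8.31 to 8.64 in WT, and Cd14, Lyz2 and Cd5l were also high in both. Adgre1, Csf1r and Marco were not above every WT liver in both arrays. Adgre1 read 9.30, 9.87 and 9.37 in ChLO, against 9.15, 9.62 and 9.34 in WT. The resident Kupffer cell marker Clec4f read 9.95, 11.03 and 10.52 in ChLO, against 10.63 to 10.67 in WT.

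Many sterol enzymes varied widely between mice of 1 genotype. Of the 19 synthesis genes, 12 spanned over 1 log2 unit among the 3 WT livers and 9 did so among the ChLO livers. Over all genes tested those shares were 20.3% and 30.5%. None of the 10 genes of uptake, transport, esterification and efflux spanned as much in WT, and 1 did in ChLO, Lrp1 at 1.04. Among ChLO livers the spread was not wide for every enzyme. Sc5d, Mvk, Msmo1, Nsdhl, Fdft1 and Hsd17b7 spanned 0.11 to 0.52 there, below the median of 0.67 over all genes. Among WT livers, however, Mvk and Nsdhl spanned 1.40 and 1.20, against a median of 0.51 over all genes. Msmo1, Hsd17b7 and Sc5d spanned 0.79, 0.62 and 0.53 in WT. Of these enzymes only Fdft1, at 0.48 in WT, was below the median in both genotypes.

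The livers with low sterol enzymes were the same across much of the route, a pattern noticed after the values were seen. For the 17 enzymes from HMG-CoA synthase to cholesterol, the median deviation from the mean of the own genotype was 0.50, 0.03 and -0.33 in ChLO 1, 2 and 3. It was 0.43, 0.24 and -0.68 in WT 1, 2 and 3. ChLO 3 was the lowest ChLO liver for 12 of the 17 enzymes and WT 3 the lowest WT liver for 13. Both held for 10 of 17 (58.8%), against 15.1% of all genes tested. The same held for 62.5% of the 8 stellate cell and fibroblast markers and 80.0% of the 5 cholangiocyte markers, and their part in the pattern was not tested. Tm7sf2, Ebp and Hsd17b7 went the other way in ChLO, with ChLO 1 lowest. The labels tie no ChLO mouse to a WT mouse, and over all genes the same-numbered arrays did not all deviate together. Over the 29 cholesterol genes, the deviations of same-numbered arrays correlated at 0.74, -0.49 and 0.65 for arrays 1, 2 and 3.

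Differences of several genes depended on whether ChLO 3 was included. Without it, Sqle differed by 0.47, Idi1 by 0.54, Cyp51 by 0.41, Lss by 0.43 and Dhcr7 by 0.15. Fdft1, at 0.34, and Stard3, at 0.22, then read higher in ChLO without overlap, as did 2935 of all 12598 genes. Outside synthesis, Lrp1 then differed by -0.29, Npc1 by -0.39, Npc2 by 0.26, Mylip by -0.32 and Scarb1 by -0.10. None of these 12 genes had an unadjusted p under 0.05 by limma without ChLO 3. Leaving out another array moved some of them by a similar or larger amount. Without WT 3, Sqle differed by -0.76 and Dhcr7 by -0.51. Without ChLO 1, Lss differed by -0.44, Lrp1 by 0.23 and Mylip by 0.10.

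**Figure D4:**
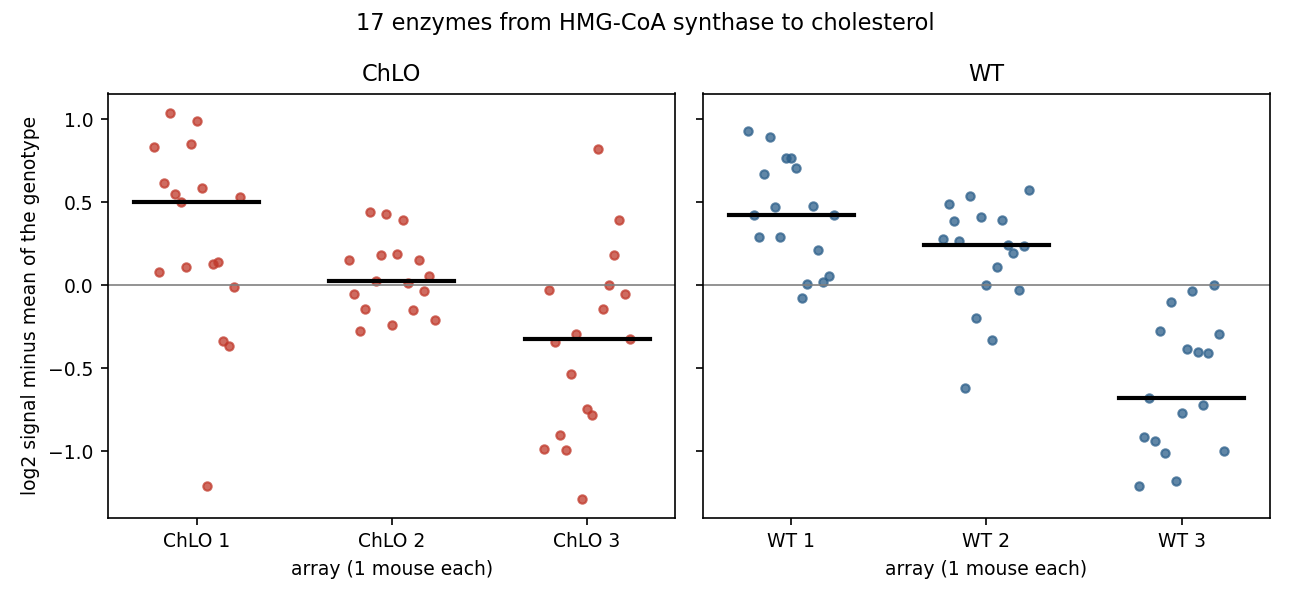
Deviation of the 17 enzymes from HMG-CoA synthase to cholesterol from the mean of their own genotype (y axis, log2 units), for each ChLO array (left) and WT array (right). Each point is 1 enzyme and the black line is the median, which is lowest in ChLO 3 at -0.33 and in WT 3 at -0.68.

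Among 13 genes listed under fatty acid synthesis, ChLO 3 and WT 3 were both lowest for 9 (69.2%). The list is broader than the enzymes that build fatty acids. It also holds Pklr, a pyruvate kinase, Me1, the desaturases Scd1, Fads1 and Fads2, and the regulators Srebf1 and Thrsp. All 13 had lower means in ChLO, as did 43.5% of all genes, with a median difference of -2.28. The groups did not overlap for 11 of them, or 84.6%, against 6.19% of all genes. By limma 0 of the 13 passed at an adjusted p under 0.05, and 13 had an unadjusted p under 0.05, against 3.5% of all genes. Their median deviation from the WT mean was -1.56, -2.40 and -2.57 in ChLO 1, 2 and 3, against 0.53, 0.55 and -0.72 in the WT livers. For the 17 sterol enzymes the same medians were 0.36, -0.19 and -0.38 in the ChLO livers, against 0.43, 0.24 and -0.68 in the WT livers. Fasn, fatty acid synthase, read 12.94, 11.22 and 9.16 in ChLO livers, against 15.00, 15.02 and 12.87 in WT. Acly, which supplies cytosolic acetyl-CoA to both routes, read 13.69, 12.65 and 12.36 in ChLO, against 15.26, 15.16 and 13.42 in WT. The difference between the 2 sets of genes was not tested.

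Of 11 measured genes of sterol sensing, 8 were lower in ChLO, against 43.5% of all genes, and 1, Scap, was lower at an unadjusted p under 0.05, against 3.5% of all genes. Scap escorts the SREBPs to the Golgi. It read 10.93, 10.80 and 10.91 in ChLO livers, against 11.88, 11.68 and 11.54 in WT livers, with no overlap and little spread in ChLO. The difference was -0.82 (SE 0.16), with an adjusted p of 0.228 by limma. Srebf2, which encodes SREBP-2, read 9.40, 8.77 and 7.59 in ChLO livers, against 8.76, 8.08 and 8.04 in WT, a difference of 0.29 (SE 0.45). Erlin2, which takes part in sterol-driven protein breakdown, read 9.97, 9.56 and 9.85 in ChLO livers, against 9.30, 9.48 and 9.33 in WT livers. The groups did not overlap, and the difference was 0.43 (SE 0.18), with an adjusted p of 0.557 by limma. Insig1, which retains Scap when sterols are high and is itself an SREBP target, differed by -0.52 (SE 0.40), and its close relative Insig2 by -0.80 (SE 0.37). Nr1h3, which encodes LXR alpha, differed by -0.30 (SE 0.22). Of 16 genes of other sterol transport and receptors, 10 were lower and 1 was lower at an unadjusted p under 0.05, a share near the 3.5% of all genes. That gene was Gramd1c, a member of the Aster family of sterol carriers, at 9.95, 10.01 and 10.04 in ChLO against 10.48, 11.09 and 10.68 in WT. Its difference was -0.75 (SE 0.20), with an adjusted p of 0.404 by limma.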

How the data were processed

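The authors deposited a table of log2 signals for 45101 probe sets on 6 arrays, and MAS5 is named in the submitters' processing notes. The log2 scale was read from the values: the linear mean, with 2% trimmed at each end, was 500 on every array. Detection calls were not used, and the sources name no genome build for the arrays.

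Probe sets were named by the platform annotation, and 34945 had 1 symbol after 64 controls were left out. Genes had to reach the 40th percentile of mean signal, a log2 signal of 5.50. The 12598 genes left were fitted with limma 3.58.1 in R 4.3.3 (eBayes with a trend), tested on simulated data. Differences are ChLO minus WT, SE is limma's moderated standard error, and p-values were adjusted by Benjamini-Hochberg over all genes. They measure the spread between mice, and 3 arrays per group limit the precision.

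The genes, lists and tests were chosen with earlier results of these data known. Text names all members, Mlxipl, up to 3 genes per related list by p, 5 fixed genes and cell type markers beside Abcg1. Same-numbered arrays correlated at 0.30, -0.17 and 0.06 in their deviations over all genes and were not paired. Alternatives covered normalization, filters, eBayes settings, array weights, probe set choice, the replicate block and leaving out each array. Spike-in scaling was added after seeing the data.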

Additional observations from a re-analysis of the deposited data

How the results depend on the processing

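Over 17 alternatives, Stard4 and Aacs stayed lower and Msmo1 higher in ChLO, each with an unadjusted p under 0.05 wherever it was measured. Lcat, Sc5d and 8 others of the 29 genes kept their sign, and 16 changed sign at least once. Lcat had an unadjusted p under 0.05 in 8 of the 17 and lost it under quantile normalization, equal array medians, eBayes without a trend, spike-in scaling and the 5 fits that left out an array other than ChLO 3. Its groups overlapped under equal medians and spike-in scaling. Array weights, whose estimate stopped short of full convergence, called 238 genes lower and 330 higher. Among them were 3 cholesterol genes, Stard4 (-0.91), Aacs (-2.62) and Msmo1 (0.85). At an unadjusted p under 0.05, 6 cholesterol genes were then lower and 3 higher, where 1255 and 1882 of all 12598 genes were. Without a filter 3 genes were called lower. The replicate block called 1 gene lower and gave 5 cholesterol genes lower and 2 higher at an unadjusted p under 0.05, adding Hmgcs1, Fdps and Sc5d. Of all 12598 genes, 539 were then lower and 793 higher at that level. Without probe sets that can match several transcripts, 0 cholesterol genes were higher by either measure, since Msmo1 was then not measured. Of the 10991 genes tested there, 569 were higher at an unadjusted p under 0.05 and 983 without overlap. Spike-in scaling moved the median of all genes by 0.25, and 1 cholesterol gene then lay below WT without overlap, against 278 of all 12598 genes. The median of the 29 genes was 0.18 there, and -0.12 relative to all genes, as in the fit reported. When each array was left out, genes called lower ranged from 0 to 101 and higher from 0 to 201, and cholesterol genes called from 0 to 1, with the highest values without ChLO 3. Cholesterol genes at an unadjusted p under 0.05 ranged from 2 to 5 lower and 1 to 3 higher, where all genes ranged from 307 to 1013 lower and 349 to 1562 higher, with both highest without ChLO 3. Those without overlap ranged from 4 to 9 lower and 1 to 5 higher, where all genes ranged from 1088 to 2016 lower and 1598 to 2935 higher. The median of the cholesterol genes ranged from -0.23 without WT 3 to 0.05 without WT 1. Other causes of these changes were not tested. Signal well above the filter level let all 29 genes be tested, and the number of arrays limits what can be told from 0.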

Other observations

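Genes of plasma lipoproteins that share cholesterol with the liver were lower in ChLO in 7 of 7 measured cases, against 43.5% of all genes. Their median difference was -0.39. Of these, 3 had groups that did not overlap, against 6.19% of all genes, and 2 had an unadjusted p under 0.05 by limma, against 3.5% of all genes. Apom, an apolipoprotein of high-density lipoprotein, read 13.38, 13.27 and 13.97 in ChLO livers, against 14.28, 14.17 and 14.45 in WT livers. The difference was -0.76 (SE 0.22), with an adjusted p of 0.451 by limma. The hepatocyte markers differed by a median of -0.36, a shift of similar size, and its part in these values was not tested.

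The isoprenoid branch, which leads from farnesyl diphosphate to dolichol, ubiquinone and prenylated proteins, had 7 of 10 genes higher. Of all 12598 genes, 7121 were higher. The median difference of the branch was 0.09. Dhdds, a subunit of the enzyme that starts dolichol synthesis, read 9.85, 9.28 and 9.29 in ChLO, against 8.77, 8.84 and 9.17 in WT. Its difference was 0.54 (SE 0.23), with an adjusted p of 0.549 by limma. Genes that open the way from cholesterol to oxysterols and bile acids had no member with an unadjusted p under 0.05 among 7. Over all genes those shares were 3.5% lower and 5.46% higher. Ch25h, which makes an oxysterol, read 8.33, 9.10 and 6.73 in ChLO livers, against 7.37, 6.45 and 6.56 in WT. ChLO 3 lay within the WT range and the other ChLO livers above it.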
